A study of Mus musculus with 47 samples.

Results

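Described here are Aire and 8 genes for proteins reported to act with it (Sirt1, Crebbp, Hipk2, Chd4, Top1, Prkdc, Parp1 and Cdk9), 9 of the 53402 genes in the adult and 9 of the 55471 in the neonatal count table. The 9 were picked by name and found by their Ensembl identifiers, with no threshold on any measured value, and each passed the filter on low counts in both tables. The study sequenced RNA from medullary thymic epithelial cells (mTECs) of C57BL/6 mice, sorted from digested thymus as live cells without CD45 or Ly51 and with EpCAM, and split by surface MHC class II into an mTEChi fraction (high) and an mTEClo fraction (low). Adult mice were 4 to 6 weeks old and either WT (7 mTEChi and 8 mTEClo libraries) or AireKO, that is Aire knock-out (4 and 4). Neonatal mice were 1 to 6 days old and belonged to 4 genotypes, namely Ctrl (5 mTEChi, 3 mTEClo), EEDcKO (3 and 4), AireKO (3 mTEChi only) and AireEEDdKO (3 and 3). Ages differed between these groups. The mTEClo Ctrl mice were 1 to 3 days old, the EEDcKO mice of either fraction and the mTEChi Ctrl mice 1 to 6, and the AireKO and AireEEDdKO mice 4 or 6 days. EEDcKO combines an Eed-flox allele with Foxn1-Cre, a Cre driven by a gene of the thymic epithelium, cortical as well as medullary. Polycomb repressive complex 2 needs EED to place the repressive H3K27me3 mark. AireEEDdKO carries the Aire and the Eed defects together. The labels do not say what the Ctrl mice carried, and the exons missing from the AireKO allele are not given in the sources used here. All adult AireKO libraries came from males of 5 to 6 weeks, while WT mice of either sex were 4 to 5 weeks old, and some neonatal libraries were pools of males and females.

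As background, Aire is the autoimmune regulator, a nuclear protein of mature mTECs through which these cells express genes of many other tissues, so that developing T cells meet those self antigens in the thymus. It binds few DNA sequences directly and works through other proteins. Top1 (DNA topoisomerase I), Prkdc (the catalytic subunit of DNA-PK) and Parp1 (poly-ADP-ribose polymerase) handle DNA breaks and strand tension at chromatin where Aire acts. Cdk9 is the kinase of P-TEFb, which releases paused RNA polymerase II into elongation. Crebbp encodes the acetyltransferase CBP, a coactivator that also acetylates Aire, and Sirt1 is the deacetylase that removes acetyl groups from Aire. Hipk2 is a kinase that phosphorylates Aire and CBP. Chd4 is the ATPase of the NuRD remodelling complex.

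Aire (ENSMUSG00000000731) lies on the minus strand at chr10:78030022-78043610 of GRCm38, with 15 merged exons that cover 3825 bases. Sirt1 (ENSMUSG00000020063) lies on the same chromosome and strand, at chr10:63319005-63381704, with 5331 exon bases. The longest genes were Prkdc (204370 bases, 86 merged exons), Hipk2 (181776 bases) and Crebbp (132670 bases). Counting ignored strand, so reads in shared exons are uncertain. Aire shares 67 exon bases with Dnmt3l, Sirt1 shares 65 with the antisense gene Gm16145, Chd4 63 with Mir7045, Parp1 7 with Mir6904 and Cdk9 155 with Mir2861 and Mir3960, at most 3.36% of a member's exon length.

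The sequence before the start is shown for Aire and Sirt1, the members that were higher in mTEChi than in mTEClo in the most groups. They are the 250 bases upstream of the RefSeq start in GRCm38.p6, minus strand, 5′ to 3′, at chr10:78043611-78043860 for Aire and chr10:63339036-63339285 for Sirt1, with every CG dinucleotide in capitals.
Aire: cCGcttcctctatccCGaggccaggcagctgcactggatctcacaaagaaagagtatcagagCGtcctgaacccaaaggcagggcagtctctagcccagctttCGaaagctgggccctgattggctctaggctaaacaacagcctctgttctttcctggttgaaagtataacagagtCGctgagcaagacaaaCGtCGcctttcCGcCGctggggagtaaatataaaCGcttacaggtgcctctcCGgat
Sirt1: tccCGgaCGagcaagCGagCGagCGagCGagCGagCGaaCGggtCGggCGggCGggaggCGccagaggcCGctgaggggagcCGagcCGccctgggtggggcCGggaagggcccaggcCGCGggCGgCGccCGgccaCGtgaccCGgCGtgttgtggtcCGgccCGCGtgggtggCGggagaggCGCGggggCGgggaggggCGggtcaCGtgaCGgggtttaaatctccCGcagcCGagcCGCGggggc
The Aire stretch held 11 CG dinucleotides and the Sirt1 stretch 39, against a median of 6 over the 32807 upstream stretches in the RefSeq table. Those of the other members ranged from 1 for the inner start of Hipk2 to 44 for Crebbp, over 10 starts of 8 members. RefSeq lists no stretch for Prkdc here. The letters GGGCGG, the core of the GC box, were searched on both strands and occurred in 8 of the 10 stretches, Aire and the inner Hipk2 start excepted, against 32.7% of all stretches. TATAAA occurred in that of Aire alone (12.4% of all), and CCAAT in 3 (33.8% of all), among them that of Aire. These are matches of letters and say nothing about binding.

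Library totals ran from 1578579 to 4817418 counts over the 47 libraries, and limits set from counts hold for counting error alone, because PCR copies of a molecule were read without identifiers. The lowest count of a partner in any library was 52 (Cdk9). A group of 6 adult libraries stood apart. All 4 mTEChi AireKO and replicates 3 and 4 of mTEClo AireKO had 0 counts over the 37 mitochondrial genes, while each other adult library had 6178 to 10339. In adult mTEChi the AireKO genotype and this kind of library cannot be told apart. In mTEClo AireKO the libraries with mitochondrial counts came from mice of 5 weeks and those without from mice of 6 weeks. Library kind and age therefore cannot be told apart there, also where library kind is fitted as a term. Eed averaged 29.1 ± 7.93 CPM (the count scaled by the TMM-adjusted library total) in neonatal mTEChi Ctrl and 14.8 ± 4.63 in EEDcKO (SD, n = 5 and 3), and 24.2 ± 1.43 against 15.2 ± 1.12 in mTEClo (n = 3 and 4), without overlap. CPM is counted over the whole gene, so reads of the remaining exons stay. All 5 thymic epithelium markers were detected in every group. Of the markers of other cells, Cd2 or Ptcra (thymocytes), Cdh5, Tie1 or Emcn (endothelium) and Pdgfra (mesenchyme) were at 0 in up to 3 groups each. Summed over 8 thymocyte markers the libraries held 16.2 to 113 CPM, over 5 endothelial markers 3.18 to 44.3, over 6 myeloid markers 25.0 to 391 and over 6 mesenchyme markers 55.3 to 778. Fewer cells of a type and less RNA per cell cannot be told apart in such bulk libraries. Nothing in the labels says which replicates came from separate animals, so p-values measure the spread between these libraries.

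Aire was the most abundant member per kb of exon in adult mTEChi WT, and its counts were far lower in every Aire-deficient group. In adult mTEChi WT, Aire stood at 753 at the lowest, 821 at the median and 921 at the highest CPM. The 4 mTEChi AireKO libraries held 39.0, 39.3, 21.6 and 17.1 CPM, from 89, 96, 63 and 41 reads. The groups were an order of magnitude apart and no AireKO library came near the lowest WT library. In adult mTEClo WT, Aire was 19.6 at the lowest, 76.7 at the median and 128 at the highest CPM. The mTEClo AireKO libraries held 7.58, 3.13, 0 and 0.243 CPM from 14, 5, 0 and 1 reads, the last pair being the libraries without mitochondrial counts. The replicate at 0 reads could hide up to 3, or 0.893 CPM. Adult mTEClo WT was the most variable Aire-sufficient adult group, with a coefficient of variation of 48.2% against 6.85% in mTEChi WT.

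Neonatal mTEChi Ctrl held 757, 808, 509, 464 and 555 CPM of Aire and EEDcKO 1072, 603 and 787. These overlap. The first pair of Ctrl libraries and the first EEDcKO library came from mice of 6 days and are the highest of their groups, the others from mice of 1 to 3 days. In AireKO the values were 115, 44.8 and 52.0 CPM and in AireEEDdKO 22.4, 32.4 and 9.94. These do not overlap with each other or with the Aire-sufficient mTEChi groups. In neonatal mTEClo, Ctrl held 324, 326 and 332 CPM, a narrow range. EEDcKO held 124, 234, 312 and 60.6 CPM and spread widely below it. AireEEDdKO held 16.4, 10.9 and 3.47 CPM, all under the lowest EEDcKO library. With age class (1 day, 2 to 3 days, 4 days, 6 days) as a term the log2 changes of Aire were -2.83 for AireKO against Ctrl (adjusted p = 0.00117), -5.14 for AireEEDdKO against EEDcKO in mTEChi (adjusted p = 2.37e-05) and -4.03 in mTEClo (adjusted p = 2.44e-04), by edgeR. Reads that remain in Aire-deficient libraries show that part of the gene was still counted, and which exons they fall in is not visible in a table of counts per gene.

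**Figure D1:**
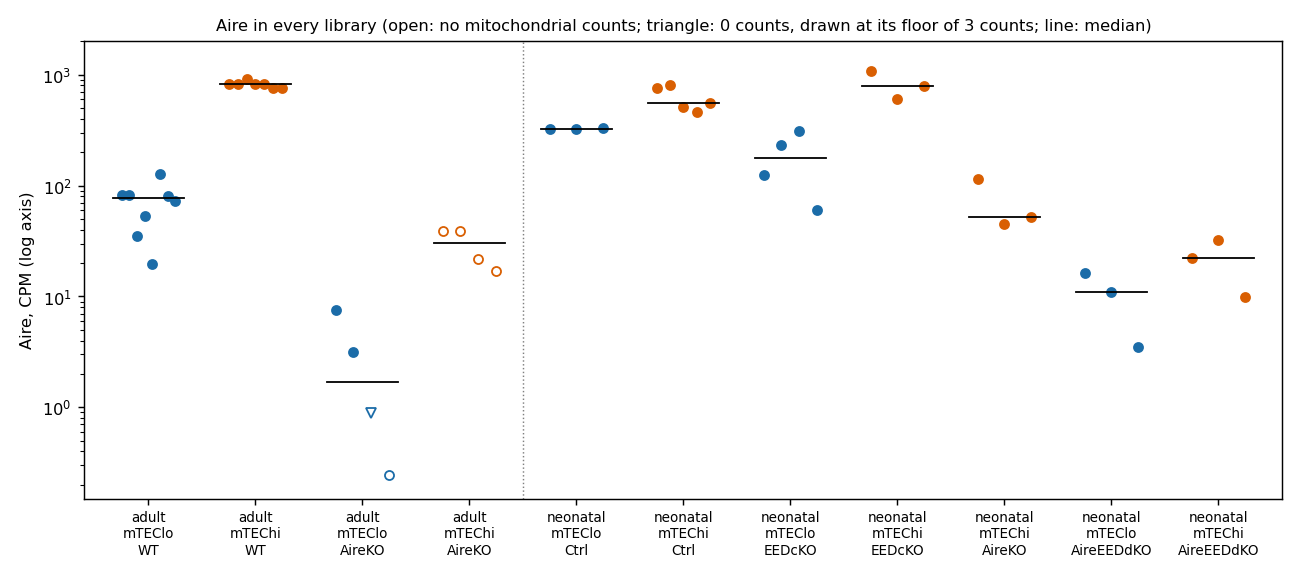
Aire in CPM (log axis) in each of the 47 libraries, by group, with mTEClo in blue, mTEChi in orange, open symbols for libraries without mitochondrial counts, a triangle at the 3-count limit for the library with 0 reads and a line at the median. The adult mTEChi WT libraries sit between 753 and 921 CPM, and every Aire-deficient library lies below the lowest neonatal mTEChi library with Aire.

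On Aire loss, the fall of Aire itself passed the test in all 5 direct comparisons (edgeR's quasi-likelihood test, Benjamini-Hochberg adjustment over all genes). It was 28.1-fold in adult mTEChi (log2 fold change -4.81 ± 0.38, adjusted p = 5.30e-11) and 35.1-fold in adult mTEClo (log2 fold change -5.13 ± 0.57, adjusted p = 1.82e-07), where leaving out 1 AireKO library in turn gave -6.58 to -4.55 on the log2 scale. In neonatal mTEChi it was 8.88-fold for AireKO against Ctrl (log2 fold change -3.15 ± 0.47, adjusted p = 4.93e-05) and 40.0-fold for AireEEDdKO against EEDcKO (log2 fold change -5.32 ± 0.56, adjusted p = 2.85e-06), and in neonatal mTEClo 18.3-fold for the latter pair (log2 fold change -4.19 ± 0.53, adjusted p = 6.81e-05). The mTEClo fall was -3.60 on the log2 scale among libraries with mitochondrial counts (adjusted p = 2.98e-04). With library kind as a term the adult mTEChi value became 0.14 (adjusted p = 0.931). That term could be estimated only from the 4 mTEClo AireKO libraries, with 14 and 5 reads against 0 and 1. Library kind and age coincide in those libraries, so the term is as much one of age. The neonatal mTEClo fall missed the threshold when only the compared groups were fitted (adjusted p = 0.0576). Within neonatal mTEChi, Aire was also lower in AireEEDdKO than in AireKO (log2 fold change -1.76 ± 0.55, adjusted p = 0.0284). That call was lost without AireKO replicate 1 or without AireEEDdKO replicate 1 or 3, and among males only, and it rests on 31 to 184 reads a library.

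Between fractions, Aire was 12.0-fold higher in adult mTEChi than mTEClo in WT (log2 fold change 3.58 ± 0.26, adjusted p = 6.65e-13) and, at the low level that remained, 15.0-fold in AireKO (log2 fold change 3.90 ± 0.67, adjusted p = 1.13e-05). The AireKO value rests on 14, 5, 0 and 1 reads in mTEClo. With libraries left out in turn it ran from 3.31 to 5.33, and it was 7.33 among libraries without mitochondrial counts and 7.35 with library kind as a term, so its size is loose. In neonates the ratio was 4.48 in EEDcKO (log2 fold change 2.16 ± 0.41, adjusted p = 2.98e-04). The neonatal Ctrl ratio of 1.88 (log2 fold change 0.91 ± 0.40, adjusted p = 0.0764) missed the threshold although the groups did not overlap, and passed when only the compared groups were fitted (adjusted p = 4.78e-04), while with age class as a term it was 0.66 (adjusted p = 0.173). The AireEEDdKO ratio also missed (log2 fold change 1.04 ± 0.61, adjusted p = 0.183). Loss of EED did not move Aire past the threshold in mTEChi (log2 fold change 0.41 ± 0.38, adjusted p = 0.441) or mTEClo (log2 fold change -0.84 ± 0.41, adjusted p = 0.122), but the mTEClo fall passed with age class as a term (-1.08, adjusted p = 0.0439), with no filter on low counts and without EEDcKO replicate 3. The difference of those effects between fractions was 1.25 ± 0.56 (adjusted p = 0.285), so an unequal response was not shown. Neonatal mTEClo Ctrl held 328 ± 4.27 CPM of Aire (SD, n = 3) and adult mTEClo WT 69.2 ± 33.4 (n = 8), while mTEChi held 619 ± 154 (n = 5) and 818 ± 56.0 (n = 7). The ages were scaled and fitted in separate tables, so these stand side by side without a test. The summed mature mTEC markers were 1910 to 2272 CPM in neonatal mTEClo Ctrl and 1207 to 2148 in adult mTEClo WT, and their part in the Aire levels was not tested.

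Levels of different genes were compared as CPM per kb of exon. In adult mTEChi WT, Aire led at 214 ± 14.6 (SD, n = 7), followed by Sirt1 at 112 ± 20.7, Chd4 at 49.1 ± 4.26, Crebbp at 33.6 ± 1.17 and Hipk2 at 25.0 ± 2.84. Each of these stood clear of the next over the libraries. Parp1 (14.1 ± 1.38), Prkdc (11.6 ± 0.727), Top1 (10.5 ± 1.07) and Cdk9 (8.60 ± 1.31) followed and overlapped with their neighbours. Per kb, Aire ranked above 99.9% and Sirt1 above 99.6% of the genes tested. In adult mTEClo WT the order began with Chd4 (56.2 ± 4.05, n = 8), Crebbp (37.1 ± 2.90) and Hipk2 (28.2 ± 2.63), and the highest Aire libraries reached the range of Crebbp and Hipk2 (Aire 18.1 ± 8.72). Sirt1, at 14.7 ± 1.89, was among the low members with Top1 and Prkdc. Without Aire, Sirt1 led adult mTEChi at 119.6 ± 3.23 (n = 4), neonatal mTEChi AireKO at 165 ± 66.8 (n = 3) and neonatal mTEChi AireEEDdKO at 124 ± 42.4 (n = 3). In neonatal mTEChi Ctrl and EEDcKO, Aire led and Sirt1 came next. In EEDcKO, Sirt1 (51.6 ± 20.1), Hipk2 (44.7 ± 7.61) and Chd4 (43.6 ± 1.98) overlapped. Top1, Prkdc, Parp1 and Cdk9 kept between 8.07 and 17.1 mean CPM per kb over the 11 groups, a range narrower than that of Sirt1 (14.6 to 165).

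**Figure D2:**
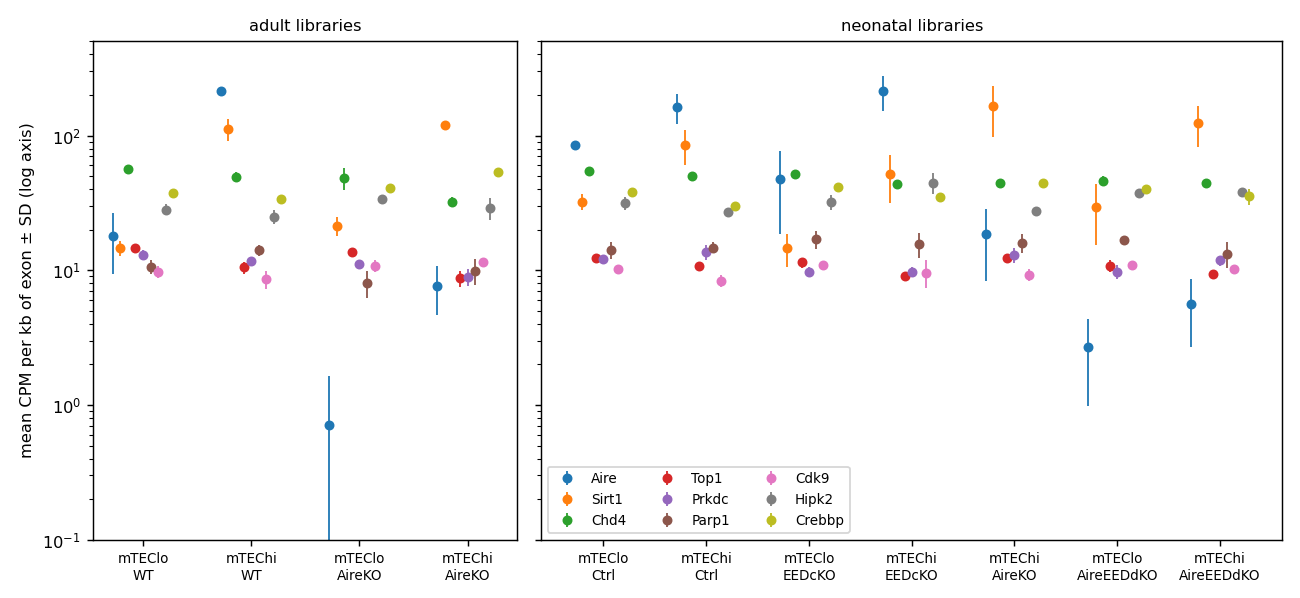
Mean CPM per kb of exon with SD over libraries (log axis) for the 9 members in the 4 adult and 7 neonatal groups. Aire and Sirt1 move over wide ranges, with Aire from 0.716 to 215, where the bar of the lowest group runs off the axis. The means of the other members range less, with Crebbp from 29.8 to 53.3, Hipk2 from 25.0 to 44.7 and Chd4 from 32.3 to 56.2.

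Loss of Aire was asked first of the partners in adult mTEChi, by comparing AireKO with WT. Of 8 partners, 6 passed the test, 2 higher and 4 lower, where 55.3% of all 19310 genes tested passed. None of the partners changed by 2-fold, and the largest change was 0.67 on the log2 scale. Crebbp, the acetyltransferase, rose. The WT libraries held 422 at the lowest, 459 at the median and 469 at the highest CPM and the AireKO libraries 725, 735, 719 and 710.1. The groups lay far apart, with little spread within AireKO (log2 fold change 0.67 ± 0.07, adjusted p = 3.10e-09), and the rise passed under all 11 alternatives other than a 2-fold minimum and with each AireKO library left out. Chd4, the NuRD ATPase, fell. It held 342 at the lowest, 385 at the median and 454 at the highest CPM in WT against 246, 244, 254 and 290.3 in AireKO, without overlap (log2 fold change -0.61 ± 0.10, adjusted p = 7.91e-06). With library kind as a term its change was -0.14 (adjusted p = 0.47).

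Of the proteins of DNA breaks, Prkdc fell from 141 at the lowest, 154 at the median and 170.4 at the highest CPM to 102, 103, 136 and 130.3 without overlap (log2 fold change -0.37 ± 0.09, adjusted p = 9.05e-04), and did so under all 11 alternatives other than a 2-fold minimum. Parp1 held 61.3 at the lowest, 74.9 at the median and 82.8 at the highest CPM in WT and 61.0, 62.6, 39.4 and 47.2 in AireKO, where 1 library overlapped with WT (log2 fold change -0.51 ± 0.13, adjusted p = 0.00175). The lower pair were replicates 3 and 4, from mice of 6 weeks, while replicates 1 and 2 came from mice of 5 weeks. With library kind as a term the Parp1 change was 0.0185 (adjusted p = 0.976). Top1 fell by a small margin (log2 fold change -0.26 ± 0.09, adjusted p = 0.0176) and lost the call without AireKO replicate 1, among males only (adjusted p = 0.0742) and with library kind as a term (-0.32, adjusted p = 0.136). Cdk9, the elongation kinase, rose from 32.8 at the lowest, 39.0 at the median and 50.7 at the highest CPM to 50.5, 49.9, 54.1 and 56.8 (log2 fold change 0.41 ± 0.11, adjusted p = 0.00281), and 1 WT library overlapped with AireKO. The rise missed the threshold with scaling by library size alone (adjusted p = 0.0594). Sirt1 (log2 fold change 0.10 ± 0.11, adjusted p = 0.477) and Hipk2 (log2 fold change 0.21 ± 0.10, adjusted p = 0.0862) did not pass, and Hipk2 passed when AireKO replicate 3 or 4 was left out. Beside these values, 5 of 8 markers of dividing cells were lower in AireKO, with a summed level of 171 to 306 CPM against 363 to 582 in WT, and the thymocyte markers were 0 higher and 4 lower of 5 tested, summing to 43.8 to 58.9 against 81.4 to 113 CPM. The myeloid markers were 2 higher and 3 lower of 5 tested and summed to 347 to 391 against 234 to 295 CPM, and the tuft mimetic markers were 0 higher and 3 lower of 5 tested. Their part in the partners' changes was not tested.

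In adult mTEClo, AireKO against WT, 2 partners passed, where 24.9% of all genes did. Sirt1 was 66.7 at the lowest, 73.6 at the median and 94.8 at the highest CPM in WT and 106, 139.6, 97.4 and 112 in AireKO. Every AireKO library lay above every WT library (log2 fold change 0.53 ± 0.12, adjusted p = 0.00182). The rise was as large among libraries with mitochondrial counts (0.66, adjusted p = 0.0065) and among males (0.55), and it passed under all 12 alternatives other than a 2-fold minimum. Parp1 fell (log2 fold change -0.43 ± 0.13, adjusted p = 0.0191), but its AireKO libraries held 46.0, 55.1, 34.0 and 35.7 CPM. The low pair were again replicates 3 and 4, here both without mitochondrial counts and from mice of 6 weeks, against 5 weeks for the others. Among libraries with mitochondrial counts the Parp1 change was -0.14 (adjusted p = 0.532), and the call was lost without replicate 3 or 4. It was also lost with sex, age in weeks or library kind as a term and among males only. The cTEC markers were 5 higher and 0 lower of 6 tested, with 635 to 809 CPM summed in mTEClo AireKO and 477 to 569.8 in WT, without overlap. The myeloid markers were 2 higher and 1 lower of 5 tested and summed to 83.9 to 121 and 27.8 to 61.7 CPM. Their part was not tested. Chd4 had the same pattern without passing, at 474, 427, 339.5 and 313 CPM in AireKO against 417 at the lowest, 439 at the median and 507 at the highest in WT (log2 fold change -0.22 ± 0.09, adjusted p = 0.0887). The difference of the Aire effect between fractions, mTEChi minus mTEClo, passed for 2 of 8 partners, where 25.3% of genes passed. It was 0.52 ± 0.09 for Crebbp (adjusted p = 1.39e-04), whose effect was 0.67 in mTEChi and 0.14 in mTEClo. For Chd4 it was -0.39 ± 0.13 (adjusted p = 0.0329), and that call was lost without replicate 1 or 2 of either AireKO group and with library kind as a term. Sirt1 came close (-0.43 ± 0.17, adjusted p = 0.0573) and passed under 7 of 11 alternatives other than a 2-fold minimum.

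The neonatal mTEChi libraries, which all hold mitochondrial counts, repeat the comparison of AireKO with a control. Of the partners 2 passed, both higher, against 28.8% of genes. Crebbp held 408, 387, 407, 407 and 410.1 CPM in Ctrl and 629, 614 and 565 in AireKO, with no overlap (log2 fold change 0.58 ± 0.09, adjusted p = 7.10e-05). Its rise passed under all 10 alternatives other than a 2-fold minimum and with each library left out. Sirt1 held 612, 586, 354, 344 and 374 CPM in Ctrl and 829, 1255 and 548 in AireKO (log2 fold change 0.95 ± 0.32, adjusted p = 0.0273). Both groups spread, the lowest AireKO library lay inside the Ctrl range, and the call was lost without Ctrl replicate 3, 4 or 5 or AireKO replicate 1 or 2, with scaling by library size alone, with a minimum of 10 counts and among males. The first pair of Ctrl libraries, from mice of 6 days, were the highest of Ctrl. With age class as a term the change was 1.00 (adjusted p = 0.0276), by edgeR. Chd4 did not pass (log2 fold change -0.17 ± 0.08, adjusted p = 0.141) although its Ctrl range of 381 to 432 CPM lay above the AireKO range of 348 to 373, and it passed with DESeq2, scaling by library size alone and a minimum of 10 counts. Prkdc (-0.08 ± 0.12), Parp1 (0.13 ± 0.16), Cdk9 (0.12 ± 0.14), Top1 (0.19 ± 0.09) and Hipk2 (0.02 ± 0.11) did not pass either. Their log2 changes beside those of adult mTEChi were -0.37 for Prkdc, -0.51 for Parp1, 0.41 for Cdk9, -0.26 for Top1 and 0.21 for Hipk2, and no test set the ages against each other. In this comparison 1 of 8 markers of dividing cells was higher and none lower, and 5 of 8 mature mTEC markers were higher. The tuft mimetic markers were 0 higher and 4 lower of 5 tested. Their part was not tested.

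In AireEEDdKO against EEDcKO, 1 partner passed in mTEChi, where 22.5% of genes did, and 0 in mTEClo by edgeR, where 8.02% did. In mTEClo 1 partner, Sirt1, had an unadjusted p under 0.05, and DESeq2 called it (adjusted p = 0.0487). Crebbp held 549, 421 and 467 CPM in mTEChi AireEEDdKO and 444, 481 and 498 in EEDcKO, and the groups overlapped (log2 fold change 0.01 ± 0.10, adjusted p = 0.945). The Aire by EED interaction, tested as the difference of the Aire effects with and without EED, was -0.56 ± 0.13 for Crebbp (adjusted p = 0.0376). It was the only partner that passed, where 1.57% of genes did. The call held in 4 of 14 fits with a library left out (those without Ctrl replicate 5, EEDcKO replicate 1 or AireEEDdKO replicate 1 or 3) and was lost with sex as a term (adjusted p = 0.054), scaling by library size alone, no filter and only the compared groups. Sirt1 rose again in mTEChi, from 379, 165 and 281 CPM in EEDcKO to 744, 836 and 407 in AireEEDdKO (log2 fold change 1.27 ± 0.37, adjusted p = 0.0157), with no overlap. Leaving out EEDcKO replicate 2, or AireEEDdKO replicate 1 or 2, ended that call. With age class as a term the mTEChi value was 1.35 (adjusted p = 0.0113). In mTEClo the Sirt1 difference was 1.02 ± 0.35 (adjusted p = 0.0708), with 63.3, 92.0, 98.7 and 56.3 CPM in EEDcKO and 221, 177 and 74.5 in AireEEDdKO, and it passed without AireEEDdKO replicate 3, the lowest of its group, or without EEDcKO replicate 3. Beside these Sirt1 values, in mTEChi the mature mTEC markers were 3 higher and 0 lower of 8 tested, those of dividing cells 0 higher and 3 lower of 8 tested and the tuft mimetic markers 0 higher and 3 lower of 5 tested. In mTEClo the mature mTEC markers were 3 higher and 0 lower of 8 tested and those of dividing cells 0 higher and 7 lower of 8 tested, with 235 to 283 CPM summed in AireEEDdKO against 370.2 to 692 in EEDcKO. Their part was not tested. The Sirt1 interaction was 0.32 ± 0.49 (adjusted p = 0.809). Across the Aire-loss comparisons the Sirt1 fold changes under TMM scaling were thus 1.07, 1.45, 1.93, 2.42 and 2.02, each higher without Aire. Those in adult mTEClo and in neonatal mTEChi passed. The direction in adult mTEChi depended on the scaling. With library size alone the Sirt1 means there were 586 CPM in AireKO and 608 in WT.

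**Figure D3:**
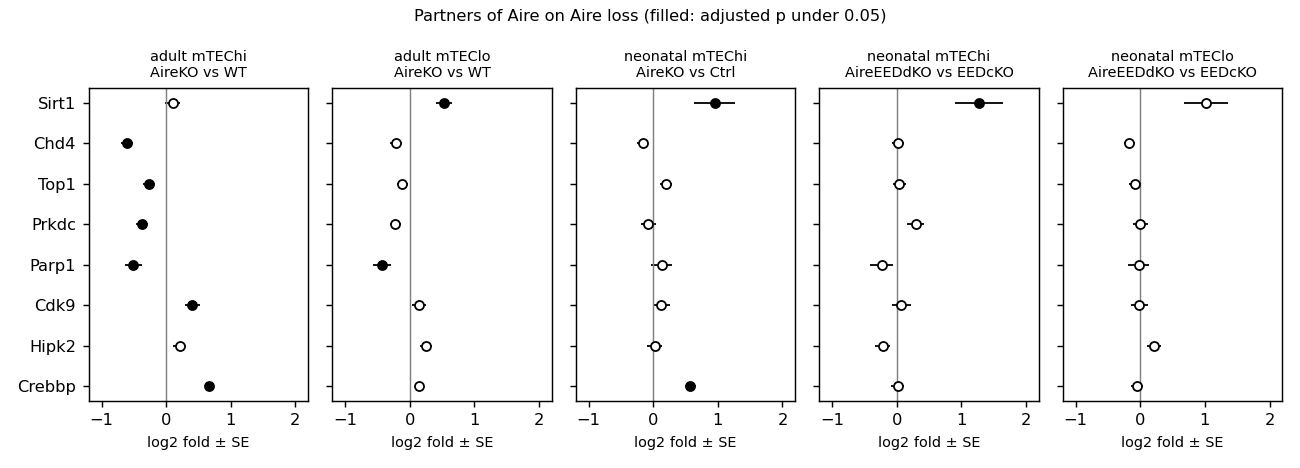
Log2 fold change with SE for the 8 partners in the 5 comparisons of Aire-deficient with Aire-sufficient libraries, filled where the adjusted p was under 0.05. Crebbp is raised in adult mTEChi (0.67) and neonatal mTEChi with EED (0.58) and lies at 0.01 in mTEChi without EED, while Sirt1 lies right of 0 in all 5 panels.

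Other genes of the same pathways were read from lists of names, beside 55.3% of all genes tested that passed in adult mTEChi AireKO against WT. The counts of the NuRD and DNA-PK lists are near that share. In adult mTEChi AireKO against WT the DNA-PK, end joining and topoisomerase list had 0 higher and 8 lower of 15 tested genes, led by Xrcc5 -1.21 ± 0.17, adjusted p = 7.15e-07, which encodes the Ku80 partner of DNA-PK, and Supt16 (-0.66), a subunit of FACT. The median of the list was -0.31 against -0.01 over all genes. The acetyltransferase, sirtuin and Hipk list had 6 higher and 1 lower of 10, with Sirt7 (0.75), Hipk1 (0.45) and Sirt2 (0.49) higher and Kat2b (-0.52) lower, and a median of 0.41. P-TEFb and elongation factors were mixed (6 higher and 4 lower of 12), with Nelfb (0.59) and Supt5 (0.46), which pause polymerase, higher, and Hexim1 (-0.48) and Larp7 (-0.99), which hold P-TEFb inactive, lower. NuRD subunits were mixed as well (3 higher and 4 lower of 12), with Mta3 (0.58) and Gatad2a (0.49) higher, and Hdac2 (-0.80) and Mbd2 (-0.78) lower. Other reported Aire-binding proteins had 4 higher and 0 lower of 9, among them Pias1 (0.46) and Jmjd6 (0.42). The receptors and factors upstream of Aire had 12 higher and 0 lower of 14, with a median of 0.59. They were led by Map3k14, the kinase NIK of the alternative NF-kB pathway (1.05 ± 0.10, adjusted p = 3.44e-09), by Rela (0.92) and by Tcf7 (1.02). Scaling by library size alone shifted the median of all genes by -0.16 in this comparison.

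The counts that follow stand beside shares of all genes that passed of 28.8% for neonatal mTEChi AireKO, 22.5% and 8.02% for AireEEDdKO against EEDcKO in mTEChi and mTEClo, and 24.9% for adult mTEClo AireKO. In neonatal mTEChi AireKO the upstream list had 7 higher and 0 lower of 14 with a median of 0.57, led by Irf8 (1.15), Traf6 (0.82) and Nfkb2 (0.78). For AireEEDdKO against EEDcKO it had 5 higher and 1 lower of 14 in mTEChi and 3 higher and 0 lower of 14 in mTEClo. Map3k14 rose in mTEChi (0.80) and in mTEClo (0.91). In mTEChi the elongation list had 1 higher and 1 lower of 12, NuRD 0 higher and 1 lower of 12. DNA-PK had 1 higher and 0 lower of 15, acetyltransferases 0 higher and 1 lower of 10, and Aire-binding proteins 1 higher and 1 lower of 9. In mTEClo the DNA-PK and acetyltransferase lists each had 0 higher and 1 lower, and the remaining lists 0 of either. These counts were near or below the shares over all genes. The DNA-PK list had 0 higher and 3 lower of 15 in neonatal mTEChi AireKO, with Nhej1 (-1.62), Dclre1c (-0.60) and Xrcc5 (-0.63), all of end joining, lower. NuRD had 2 higher and 0 lower of 12, P-TEFb and elongation 2 higher and 1 lower of 12, acetyltransferases, sirtuins and Hipk kinases 3 higher and 1 lower of 10 and other Aire-binding proteins 2 higher and 0 lower of 9. Xrcc5 was lower in AireKO mTEChi at either age. In adult mTEClo AireKO, the counts were 4 higher and 1 lower of 14 for the upstream list, led by Irf4 (1.10) and Tcf7 (1.15), 0 higher and 1 lower of 15 for DNA-PK and topoisomerases, 4 higher and 1 lower of 12 for elongation, 3 higher and 0 lower of 12 for NuRD, 1 higher and 0 lower of 10 for acetyltransferases and sirtuins, and 1 higher and 0 lower of 9 for other Aire-binding proteins. In neonatal mTEChi AireKO the DNA-PK, NuRD, elongation and Aire-binding lists, and in adult mTEClo AireKO the NuRD list, lay at or below the share over all genes, as did the DNA-PK, acetyltransferase and Aire-binding lists in adult mTEClo. Of 8 antigen genes known to depend on Aire, 7 matched a symbol and 6 were tested. In adult mTEChi 5 were lower and in neonatal mTEChi 3, with Ins2 (insulin) at 10.6 ± 4.05 CPM in adult WT and 7.55 ± 1.71 in neonatal Ctrl (SD) and at 0 in every AireKO library of either age. In adult mTEClo AireKO 1 antigen gene was higher and 2 were lower. For AireEEDdKO against EEDcKO the counts were 0 higher and 3 lower in mTEChi and 1 higher and 0 lower in mTEClo. Tff3 fell from 17.0 ± 7.04 to 0.484 ± 0.606 CPM in adult mTEChi. Csn2 (casein beta) differed by 0.21 there and did not pass. It is named after its values were seen.

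The second question was how the members differ between the mTEChi and mTEClo fractions. In adult WT 6 of 8 partners passed, 2 higher and 4 lower in mTEChi, in a comparison where 70.5% of all genes passed. Sirt1 was 7.62-fold higher (log2 fold change 2.93 ± 0.10, adjusted p = 1.51e-19). Its mTEChi WT libraries held 473 at the lowest, 580.4 at the median and 771 at the highest CPM, and the highest of the mTEClo WT libraries was 94.8. Among partners Sirt1 alone differed by more than 2-fold. Parp1 was modestly higher (log2 fold change 0.41 ± 0.11, adjusted p = 0.00102), with overlap. Top1 was lower (log2 fold change -0.49 ± 0.07, adjusted p = 1.02e-06), at 91.0 at the lowest, 114 at the median and 122 at the highest CPM in mTEChi against 137 at the lowest, 156 at the median and 163 at the highest in mTEClo, and the ranges did not meet. Chd4 (-0.19 ± 0.08), Prkdc (-0.17 ± 0.07) and Crebbp (-0.14 ± 0.06) were lower by less than 0.20 on the log2 scale, and each lost its call under RLE or library-size scaling, DESeq2 and males only. Scaling by RLE left 3 of the 8 partners and Aire past the threshold.

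In adult AireKO the same contrast had 5 partners past the threshold, where 57.5% of genes passed. Sirt1 was 5.65-fold higher in mTEChi (log2 fold change 2.50 ± 0.14, adjusted p = 6.39e-15), with 633, 648, 615 and 653 CPM against 106, 139.6, 97.4 and 112. Top1 (-0.64 ± 0.10), Chd4 (-0.58 ± 0.11) and Prkdc (-0.32 ± 0.10) were lower in mTEChi. Crebbp was higher (log2 fold change 0.38 ± 0.08, adjusted p = 9.37e-05), where the sign in WT was lower. These 5 calls passed under all 12 alternatives other than a 2-fold minimum and with each library left out. The test of the difference between the genotypes is the one given above for Crebbp and Chd4. Among the libraries without mitochondrial counts (4 mTEChi, 2 mTEClo) the values were 2.56 for Sirt1, 0.39 for Crebbp, -0.71 for Top1, -0.38 for Chd4 and -0.43 for Prkdc.

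In neonatal Ctrl, 2 partners passed against 37.4% of genes. Sirt1 was 2.63-fold higher in mTEChi (log2 fold change 1.40 ± 0.34, adjusted p = 0.00349), with 195, 172 and 148 CPM in mTEClo and 612, 586, 354, 344 and 374 in mTEChi, so each mTEChi library was above each mTEClo library. Crebbp was lower (log2 fold change -0.36 ± 0.09, adjusted p = 0.00327), at 491, 514 and 552 CPM in mTEClo and 387 to 410.1 in mTEChi. Leaving out mTEClo Ctrl replicate 3 ended that Crebbp call. In EEDcKO, 5 partners passed against 38% of genes. Sirt1 was 3.52-fold (log2 fold change 1.81 ± 0.35, adjusted p = 3.29e-04) and Hipk2 1.38-fold higher in mTEChi (log2 fold change 0.47 ± 0.11, adjusted p = 0.00248), the Hipk2 call being lost without mTEChi EEDcKO replicate 3. Top1 (-0.33 ± 0.10), Chd4 (-0.25 ± 0.09) and Crebbp (-0.26 ± 0.09) were lower. Leaving out mTEChi EEDcKO replicate 2 ended all 3 of these falls, Chd4 lost its call without mTEChi EEDcKO replicate 1 or 3 or mTEClo EEDcKO replicate 4, and Crebbp without mTEChi replicate 1 or mTEClo replicate 1, 2 or 4. In AireEEDdKO, 1 partner passed against 39.2% of genes, and it was Sirt1 (log2 fold change 2.07 ± 0.38, adjusted p = 1.96e-04), with 221, 177 and 74.5 CPM in mTEClo and 744, 836 and 407 in mTEChi. The highest mTEClo library was below the lowest mTEChi library. Sirt1 thus was higher in mTEChi in all 5 genotype and age combinations, with fold changes of 7.62, 5.65, 2.63, 3.52 and 4.20. Each of these calls passed under every alternative run, a 2-fold minimum included, and with each library of a group of up to 5 left out. The cortical (cTEC) markers summed to 2344 to 3521 CPM in neonatal mTEClo Ctrl against 455 to 1121 in mTEChi Ctrl. The summed mature mTEC markers overlapped, at 1910 to 2272 CPM in mTEClo Ctrl and 1950 to 3214 in mTEChi Ctrl. Of these markers 4 were higher and 0 lower in mTEChi of 8 tested, and the mTEClo markers were 0 higher and 3 lower of 6 tested. The part of all these markers in the neonatal differences was not tested.

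**Figure D4:**
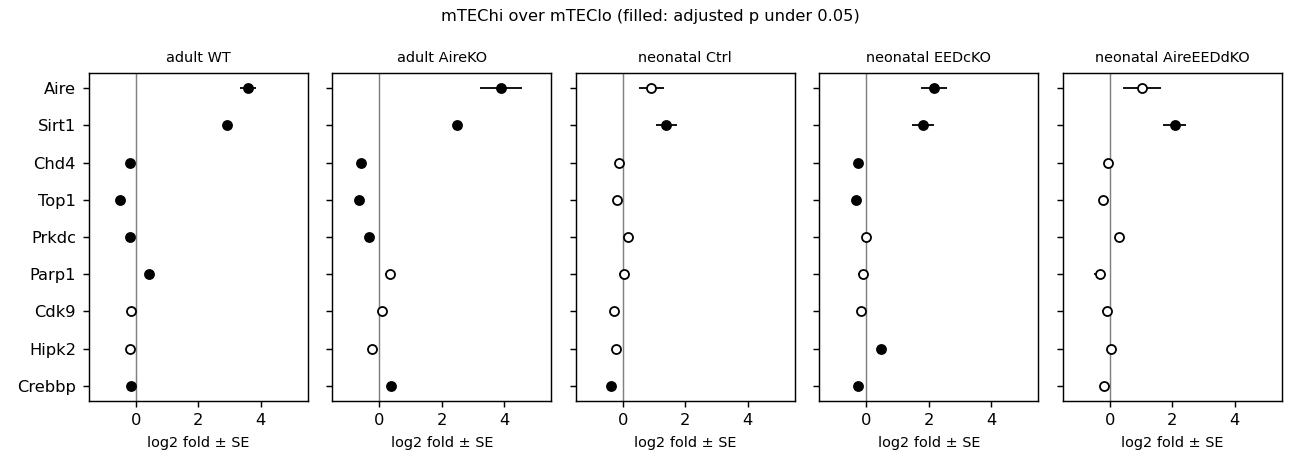
Log2 fold change of mTEChi over mTEClo with SE for the 9 members in 2 adult and 3 neonatal genotypes, filled where the adjusted p was under 0.05. Sirt1 stands between 1.40 and 2.93 in all 5 panels, and the partners other than Sirt1 lie within 0.64 of 0.

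Over all genes 70.5% passed between the fractions in adult WT, 57.5% in adult AireKO and 37.4% (Ctrl), 38% (EEDcKO) and 39.2% (AireEEDdKO) in neonates, and the NuRD and acetyltransferase counts in adult WT are about that share. The lists had, in adult WT mTEChi against mTEClo, 11 higher and 2 lower of 14 for the upstream genes (median 0.76), led by Tcf7 (3.66), Tbx21 (4.05) and Traf6 (1.22), with Ltbr (-1.16) and Rela (-0.34) lower. In adult AireKO the count was 12 higher and 1 lower of 14, with Tcf7 at 3.54 and Ltbr at -0.93. Ltbr encodes the lymphotoxin beta receptor and Traf6 an adaptor of RANK and CD40. NuRD subunits had 3 higher and 6 lower of 12 in adult WT and 3 higher and 6 lower of 12 in adult AireKO, with Mta1 lower at -1.16 and -1.34 and Rbbp7 higher at 0.78 and 0.52. In the neonatal comparisons the counts were 0 higher and 6 lower of 12 (Ctrl), 0 higher and 4 lower of 12 (EEDcKO) and 1 higher and 4 lower of 12 (AireEEDdKO), and Mta1 and Mta2 passed as lower in each. The DNA-PK list had 5 higher and 7 lower of 15 in adult WT and 1 higher and 5 lower of 15 in AireKO. Xrcc5 was lower in mTEChi in both (-1.52 and -2.95) and in neonatal Ctrl (-1.64), EEDcKO (-1.02) and AireEEDdKO (-0.97). Elongation factors had 2 higher and 5 lower of 12 and 2 higher and 5 lower of 12 in the adult genotypes, with Ell2, an elongation factor of the super elongation complex, higher in each (0.61 and 0.57). Acetyltransferases, sirtuins and Hipk kinases had 1 higher and 6 lower of 10 and 2 higher and 2 lower of 10, with Hipk3 higher (0.47 and 0.55) and Kat2b lower (-0.82 and -1.17), and other Aire-binding proteins 0 higher and 4 lower of 9 and 0 higher and 3 lower of 9, led by Atf7ip (-0.65 in WT). All 6 tested antigen genes were higher in adult WT mTEChi, among them Chrna1 (2.42), and 2 in AireKO. All 8 markers of dividing cells were higher in adult WT mTEChi, with a summed 363 to 582 CPM against 125 to 234. The myeloid markers were 5 higher and 0 lower of 5 tested and summed to 234 to 295 against 27.8 to 61.7 CPM. The tuft mimetic markers were 0 higher and 5 lower of 5 tested and summed to 212 to 326 against 1605 to 2078 CPM. Thymocyte markers were 4 higher and 0 lower of 5 tested, and endothelial markers 3 higher and 0 lower of 3. Mesenchyme markers were 3 higher and 1 lower of 6. The part of these markers in the adult differences was not tested.

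The third question was whether loss of EED moves the members. In neonatal mTEChi, EEDcKO against Ctrl, 4 of 8 partners passed, 2 higher and 2 lower, where 32.6% of all genes passed. Hipk2, the kinase, rose from 218, 225, 236, 256 and 257 CPM in Ctrl to 359.9, 352 and 472 in EEDcKO. The lowest EEDcKO library stood well above the highest Ctrl library (log2 fold change 0.73 ± 0.11, adjusted p = 3.37e-05), and the rise passed under all 9 alternatives other than a 2-fold minimum and with each library left out. Prkdc fell from 193, 211, 172, 172 and 151 CPM to 139, 127 and 118, without overlap (log2 fold change -0.49 ± 0.12, adjusted p = 0.00271), and this too passed in every such fit. Top1 was slightly lower (log2 fold change -0.24 ± 0.09, adjusted p = 0.0457) and lost the call without Ctrl replicate 1, 2 or 4 or EEDcKO replicate 2 or 3. Crebbp was slightly higher (log2 fold change 0.23 ± 0.09, adjusted p = 0.0484) and kept the call with only EEDcKO replicate 1 left out, and lost it without any other library. With sex as a term neither Top1 nor Crebbp passed. The mTEChi EEDcKO libraries were 1 female and 2 pools of both sexes, and those of Ctrl 3 males, 1 female and 1 pool. Chd4 (-0.20 ± 0.08, adjusted p = 0.0692), Sirt1 (-0.73 ± 0.33, adjusted p = 0.097), Parp1 (0.10 ± 0.15) and Cdk9 (0.21 ± 0.13) did not pass. Of 9 alternatives other than a 2-fold minimum, Chd4 passed in 5 and Sirt1 in 4, with age class as a term among them for each (adjusted p = 0.0463 and 0.0387). Chd4 held 407, 393, 397, 432 and 382 CPM in Ctrl and 341, 368 and 341 in EEDcKO, without overlap. Cdk9 passed without EEDcKO replicate 1 (adjusted p = 0.0174). Of the markers of dividing cells 6 of 8 were lower in EEDcKO, with a summed 286 to 631 CPM against 717 to 1018, and 5 of 6 mTEClo markers were higher. The mesenchyme markers were 3 higher and 0 lower of 6 tested and summed to 492 to 778 against 242 to 317 CPM. Their part was not tested.

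With Aire absent as well, AireEEDdKO against AireKO, 3 partners passed in mTEChi against 16.8% of genes. Hipk2 rose again, from 239.8, 239 and 248 CPM to 349.7, 324 and 344, without overlap (log2 fold change 0.49 ± 0.12, adjusted p = 0.00855). Top1 fell from 132, 127 and 126 CPM to 97.1, 95.3 and 98.8 (log2 fold change -0.40 ± 0.10, adjusted p = 0.0101). Crebbp fell from 629, 614 and 565 to 549, 421 and 467 CPM (log2 fold change -0.33 ± 0.10, adjusted p = 0.0248), and lost the call without AireKO replicate 1 or 2 or AireEEDdKO replicate 2 or 3. Among males only, no member passed. All 8 markers of dividing cells were lower in AireEEDdKO, with a summed 174 to 442 CPM against 1076 to 1274, and the mesenchyme markers were 2 higher and 0 lower of 6 tested and summed to 403 to 727 against 250.03 to 349.8 CPM. Their part was not tested. Prkdc did not pass here (-0.12 ± 0.13, adjusted p = 0.591), nor did Sirt1 (-0.40 ± 0.36, adjusted p = 0.499). The interactions of Aire and EED were -0.24 ± 0.17 for Hipk2, 0.37 ± 0.17 for Prkdc, -0.15 ± 0.14 for Top1 and -2.17 ± 0.67 for Aire (adjusted p = 0.0983), none of which passed. That of Aire passed with age class as a term (-2.30, adjusted p = 0.0467), with no filter and with only the compared groups.

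In neonatal mTEClo, EEDcKO against Ctrl, 1 partner passed against 30.7% of genes. Sirt1 fell from 195, 172 and 148 CPM in Ctrl to 63.3, 92.0, 98.7 and 56.3 in EEDcKO, without overlap (log2 fold change -1.15 ± 0.35, adjusted p = 0.0152). The fall passed under all 10 alternatives, a 2-fold minimum included, and was lost without Ctrl replicate 1. The Ctrl mice were 1 to 3 and the EEDcKO mice 1 to 6 days old, and with age class as a term the Sirt1 change was -1.37 (adjusted p = 0.0021). Prkdc lay at the edge (-0.31 ± 0.12, adjusted p = 0.0503), at 164, 155 and 160.3 CPM in Ctrl and 132, 122, 118 and 144 in EEDcKO, without overlap, and passed under 6 of 9 alternatives other than a 2-fold minimum. Hipk2 held 252, 274 and 312 CPM in Ctrl and 236, 284, 321 and 300.3 in EEDcKO and overlapped (log2 fold change 0.03 ± 0.11, adjusted p = 0.855). The EED effect on Hipk2 was larger in mTEChi than in mTEClo by 0.69 ± 0.16 (adjusted p = 0.0209), the only member past the threshold in that test, where 1.98% of genes passed. That call was lost without mTEClo Ctrl replicate 3 or mTEChi EEDcKO replicate 3 and passed under all 9 alternatives other than a 2-fold minimum. For Sirt1 the difference of the effects was 0.42 ± 0.48 (adjusted p = 0.741). The cTEC markers summed to 435 to 1076 CPM in mTEClo EEDcKO against 2344 to 3521 in Ctrl, 6 of 6 lower, the dividing-cell markers to 370.2 to 692 against 922 to 990.2 CPM, and the mesenchyme markers (5 higher and 1 lower of 6 tested) to 496 to 683 against 121 to 129 CPM. Their part in the Sirt1 fall was not tested.

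**Figure D5:**
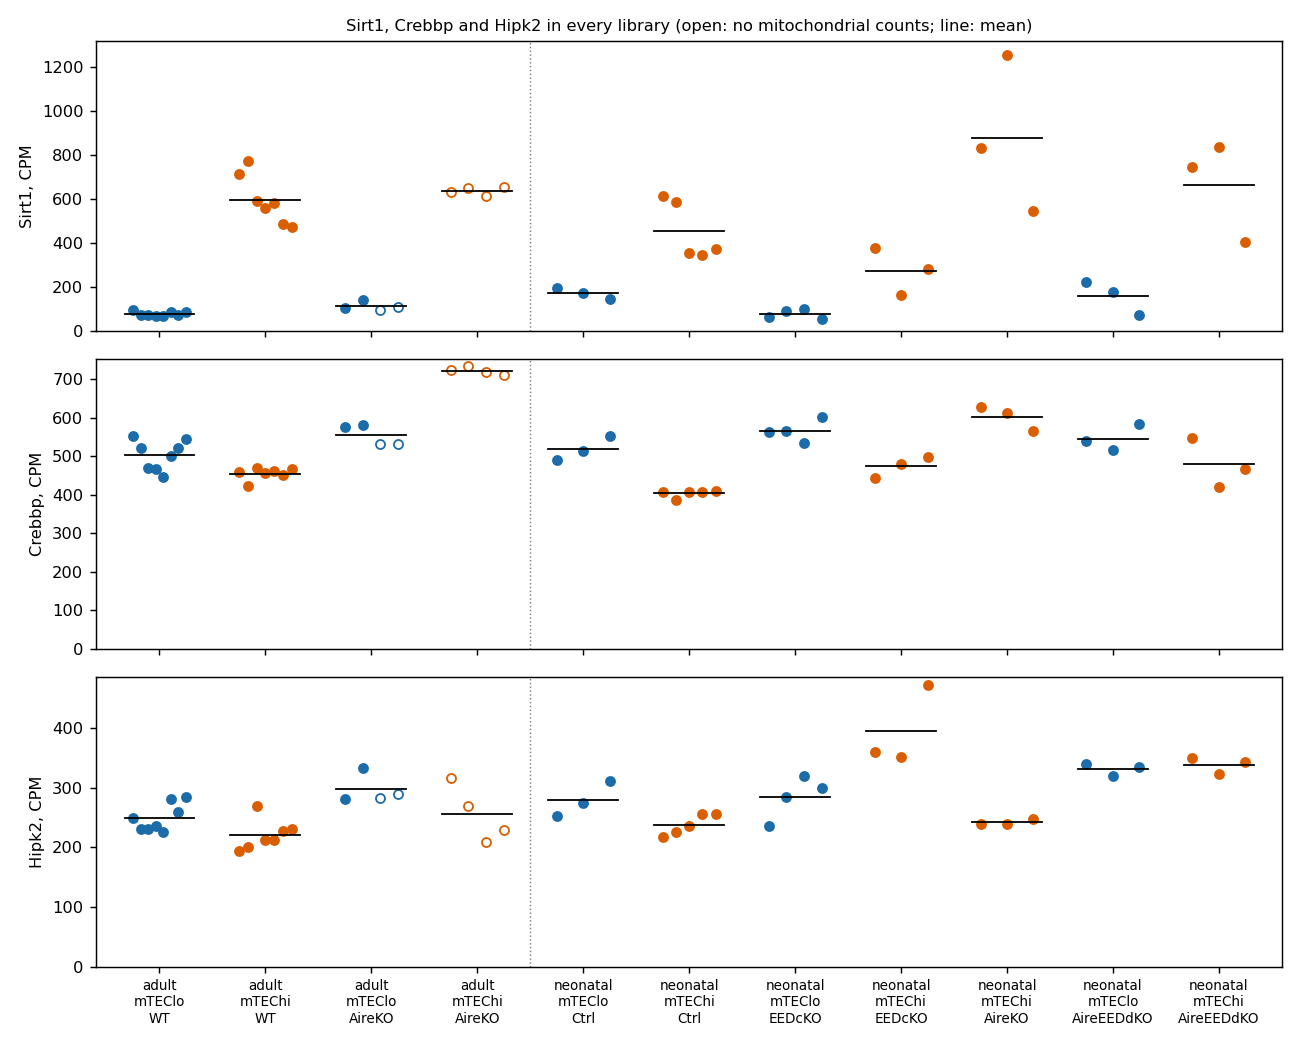
Sirt1, Crebbp and Hipk2 in CPM in each library by group, with mTEClo in blue, mTEChi in orange, open circles for libraries without mitochondrial counts and a line at the mean. Crebbp is at 710.1 to 735 CPM in adult mTEChi AireKO against 422 to 469 in WT, and Hipk2 at 352 to 472 CPM in neonatal mTEChi EEDcKO.

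The list counts stand beside 32.6% of all genes that passed for EEDcKO against Ctrl in mTEChi, 16.8% for AireEEDdKO against AireKO and 30.7% for EEDcKO against Ctrl in mTEClo. EEDcKO mTEChi had 4 higher and 3 lower of 12 NuRD subunits, with Gatad2a (0.91) and Mbd3 (0.94) higher and the histone chaperones Rbbp7 (-0.92) and Rbbp4 lower. Rbbp7 was lower also in AireEEDdKO against AireKO and in mTEClo EEDcKO (-0.69). The DNA-PK list had 1 higher and 5 lower of 15, led by Top2a (-1.41), a topoisomerase of dividing cells, Xrcc4 (-1.02) and Supt16 (-0.68), then 0 higher and 4 lower of 15 in AireEEDdKO against AireKO and 0 higher and 6 lower of 15 in mTEClo. The acetyltransferase, sirtuin and Hipk list had 3 higher and 0 lower of 10, 0 higher and 1 lower of 10 and 4 higher and 1 lower of 10 in the same order, with Sirt6 (1.27 and 0.98) and Sirt7 (0.53 and 0.39) higher in EEDcKO of either fraction. Elongation factors had 3 higher and 4 lower of 12, 0 higher and 1 lower of 12 and 1 higher and 2 lower of 12, and the 2 cyclins of P-TEFb, Ccnt1 (-0.52) and Ccnt2 (-0.57), were lower in mTEChi EEDcKO. Upstream genes had 3 higher and 1 lower of 14, 1 higher and 0 lower of 14 and 2 higher and 4 lower of 14. Ltbr was higher in all 3 comparisons (1.50, 0.82 and 0.72) and Rela in EEDcKO of either fraction (0.97 and 0.51), while Irf4 (-1.79), Nfkb1 (-0.49) and Traf6 (-0.74) were lower in mTEClo EEDcKO. Other Aire-binding proteins had 2 higher and 1 lower of 9, 0 higher and 2 lower of 9 and 0 higher and 1 lower of 9, with Kpnb1, an importin, lower in each (-0.31, -0.56 and -0.50). The comparisons of EEDcKO with Ctrl and of AireEEDdKO with AireKO share no library. Those of AireKO and of EEDcKO with Ctrl in mTEChi share the Ctrl libraries, and the Crebbp rise in AireKO and its fall in AireEEDdKO share the AireKO libraries. The Sirt1 comparison of fractions in Ctrl and the mTEClo comparison of EEDcKO with Ctrl share the mTEClo Ctrl libraries.

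The pattern of Aire over libraries was most like that of Ly6c2 (Pearson's r 0.86 and 0.90 over the 23 adult and 24 neonatal libraries, log2 CPM), Fancd2 (0.86 and 0.87), Ly6g (0.86 and 0.89), Gm5960 (0.85 and 0.87) and Lypd2 (0.88 and 0.85), out of 18545 genes ranked by the lower of the pair. Libraries of a group share genotype, fraction and, in the adult set, library kind, so these values describe differences between groups and carry no p. Ly6c2, Ly6g and Lypd2 belong to a family of similar genes. Reads that fit near-identical copies may be missing, because the study removed reads of low mapping quality before counting. By Spearman's rho, 2 of these 5 stayed among the first 5, and over the libraries with intact Aire, 0 did. Among the partners, Sirt1 had an r of 0.96 with Aire over the 15 adult and 0.88 over the 15 neonatal libraries with intact Aire, where both are high in mTEChi, against 0.51 and 0.05 over all. Over all libraries Parp1 had 0.87 in adults, near the value of Ly6c2, but -0.20 in neonates. Crebbp (-0.49 and -0.49), Cdk9 (-0.55 and -0.47), Hipk2 (-0.59 and -0.22) and Top1 (-0.32 and -0.05) had negative values at both ages. Chd4 (0.23 and 0.28) and Prkdc (0.13 and 0.16) had positive ones. With intact Aire, Parp1 had 0.81 and -0.51 and Top1 -0.89 and -0.61.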

How the data were processed

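RNA was measured in 47 libraries of sorted mTECs. The authors deposited 2 tables, adult and neonatal, of raw counts, a whole number for each Ensembl gene and library. Per the study's methods and the submitters' processing notes, full-length random-primed (RamDA-type) libraries were trimmed with fastp 0.20.0, mapped to mm10 with STAR 2.7.3a, filtered with SAMtools 1.9, cleared of duplicates with Picard 2.21.1 and counted without strand by HTSeq 0.11.2. As no molecular identifiers were read, discarding duplicates can lower high counts more than low ones. The authors' normalized tables were not used. Several sequencing instruments were used, and which library ran on which is not given in the sources used here.

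The tests used edgeR 4.0.16 in R 4.3.3 (filterByExpr, TMM scaling, quasi-likelihood F-test, 2-sided, all groups of a table fitted together), adjusted by Benjamini-Hochberg over all 19310 adult or 20196 neonatal genes tested, with a threshold of 0.05, no minimum change and a prior count of 0.125. Levels are CPM with TMM-scaled library sizes, or CPM per kb of merged exons of GENCODE on GRCm38. Errors are SD for levels and SE for fold changes. The SE was derived from the test, as the absolute log2 fold change over the square root of its F statistic. The floor for a count of 0 is 3 reads (95%) and covers counting error only. Groups came from the titles in the labels, and adult and neonatal tables were never tested against each other.

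The members and the lists were chosen with earlier results of these data known. Named are all 9 members, from each list up to 3 genes per direction with the smallest adjusted p among those that passed, and the 5 genes most like Aire. Medians of the antigen list are not given because some of its genes are at 0 in whole groups. The alternatives were a 2-fold minimum, DESeq2 1.42.0, scaling by RLE or by library size, no filter or a minimum of 10 counts throughout a group, the replicate number as a block, only the groups compared, sex, age and library kind as terms, libraries with or without mitochondrial counts alone, each library left out in turn in groups of up to 5 and, chosen after seeing the data, male libraries only. Same-numbered libraries deviated together (every correlation over 0.1) between the fractions in adult AireKO (0.139 to 0.222) and in neonatal AireEEDdKO (0.291 to 0.416), and between neonatal mTEChi AireKO and AireEEDdKO (0.108 to 0.213). The best match had the same number for 2 of 4 libraries in adult AireKO and 3 of 3 in each neonatal comparison. Same-numbered libraries there also came from mice of the same age, so pairing and shared age cannot be told apart. In the other comparisons not every correlation was over 0.1. Replicates differed by more than sampling noise (lowest chi-square per gene 1.23). The fits were tested on simulated data before use.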

Additional observations from a re-analysis of the deposited data

Results flagged for a closer look

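Of 54 sets of member values in groups of 4 to 10 libraries, 4 had a library farther from its neighbours than Dixon's 95% limit, where chance gives about 1 in 20. Cdk9 was 55.1 CPM in adult mTEClo WT replicate 1, where the other libraries of the group held 40.9 to 46.8. Hipk2 was 334 CPM in adult mTEClo AireKO replicate 2, where the other libraries of the group held 282 to 289.9. Crebbp was 422 CPM in adult mTEChi WT replicate 2, where the other libraries of the group held 451 to 469, so that the WT spread in Crebbp comes mostly from that library. Crebbp was 387 CPM in neonatal mTEChi Ctrl replicate 2, where the other libraries of the group held 407 to 410.1. No library was far from its group for more than 1 member.

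Effects that differed between groups by the test of the difference itself were found for 3 members. The effect of Aire loss on Crebbp was larger in adult mTEChi than in mTEClo by 0.52 ± 0.09 on the log2 scale (adjusted p = 1.39e-04), and that on Chd4 was more negative there, with a difference of -0.39 ± 0.13 (adjusted p = 0.0329), in a test that 25.3% of all genes passed. The Chd4 call held in 4 of 8 fits with a library left out. The Aire by EED interaction in neonatal mTEChi was -0.56 ± 0.13 for Crebbp (adjusted p = 0.0376), where 1.57% of genes passed, and held in 4 of 14 fits with a library left out. The effect of EED loss on Hipk2 was larger in mTEChi than in mTEClo by 0.69 ± 0.16 (adjusted p = 0.0209), where 1.98% passed, and that call was lost without mTEClo Ctrl replicate 3 or mTEChi EEDcKO replicate 3. In the adult comparisons the mTEChi AireKO libraries are all of the kind without mitochondrial counts, and for Crebbp the difference was 0.58 with library kind as a term (adjusted p = 7.33e-05) and for Chd4 -0.14 (adjusted p = 0.414).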

How the results depend on the processing

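Counts below are of the 9 members past the threshold, with the count of the model used in the report in brackets. With a 2-fold minimum the counts that moved by over 1.5 times were 1 (7) for adult mTEChi AireKO against WT, 1 (3) for adult mTEClo AireKO against WT, 2 (7) for adult WT mTEChi against mTEClo, 2 (6) for adult AireKO mTEChi against mTEClo, 0 (2) for the adult Aire effect between fractions, 0 (4) for neonatal mTEChi EEDcKO against Ctrl, 1 (3) for neonatal mTEChi AireKO against Ctrl, 1 (4) for neonatal mTEChi AireEEDdKO against AireKO, 0 (1) for the Aire by EED interaction, 1 (2) for neonatal Ctrl mTEChi against mTEClo, 2 (6) for neonatal EEDcKO mTEChi against mTEClo and 0 (1) for the EED effect between fractions. With library kind as a term the counts that moved by over 1.5 times were 3 (7) for adult mTEChi AireKO against WT and 1 (2) for the adult Aire effect between fractions. With scaling by library size alone the counts that moved by over 1.5 times were 5 (3) for adult mTEClo AireKO against WT, 4 (7) for adult WT mTEChi against mTEClo, 0 (1) for the Aire by EED interaction, 2 (1) for neonatal mTEClo EEDcKO against Ctrl and 3 (1) for neonatal AireEEDdKO mTEChi against mTEClo. With DESeq2 the counts that moved by over 1.5 times were 5 (3) for adult mTEClo AireKO against WT, 4 (7) for adult WT mTEChi against mTEClo, 2 (1) for neonatal mTEClo EEDcKO against Ctrl, 2 (1) for neonatal mTEClo AireEEDdKO against EEDcKO and 2 (1) for neonatal AireEEDdKO mTEChi against mTEClo. With the replicate block the counts that moved by over 1.5 times were 5 (3) for adult mTEClo AireKO against WT and 4 (2) for neonatal Ctrl mTEChi against mTEClo. With RLE size factors the counts that moved by over 1.5 times were 4 (7) for adult WT mTEChi against mTEClo and 2 (1) for neonatal mTEClo EEDcKO against Ctrl. Among male libraries only, an alternative chosen after seeing the data, the counts that moved by over 1.5 times were 3 (7) for adult WT mTEChi against mTEClo and 0 (4) for neonatal mTEChi AireEEDdKO against AireKO. With sex as a term the counts that moved by over 1.5 times were 2 (4) for neonatal mTEChi EEDcKO against Ctrl, 0 (1) for the Aire by EED interaction and 2 (1) for neonatal AireEEDdKO mTEChi against mTEClo. Without a filter on low counts the counts that moved by over 1.5 times were 2 (4) for neonatal mTEChi AireEEDdKO against AireKO, 2 (1) for neonatal mTEClo EEDcKO against Ctrl, 2 (1) for neonatal mTEClo AireEEDdKO against EEDcKO and 3 (6) for neonatal EEDcKO mTEChi against mTEClo. With age class as a term the counts that moved by over 1.5 times were 2 (1) for the Aire by EED interaction and 3 (1) for neonatal mTEClo EEDcKO against Ctrl. With a minimum of 10 counts throughout a group the counts that moved by over 1.5 times were 2 (1) for neonatal mTEClo EEDcKO against Ctrl and 2 (1) for neonatal AireEEDdKO mTEChi against mTEClo. When only the compared groups were fitted the counts that moved by over 1.5 times were 2 (1) for neonatal mTEClo EEDcKO against Ctrl, 0 (1) for neonatal mTEClo AireEEDdKO against EEDcKO and 3 (6) for neonatal EEDcKO mTEChi against mTEClo. With libraries left out in turn the count ranged from 1 to 3 (2) for the adult Aire effect between fractions, 2 to 6 (4) for neonatal mTEChi EEDcKO against Ctrl, 2 to 4 (4) for neonatal mTEChi AireEEDdKO against AireKO, 1 to 2 (2) for neonatal mTEChi AireEEDdKO against EEDcKO, 0 to 1 (1) for the Aire by EED interaction, 0 to 2 (1) for neonatal mTEClo EEDcKO against Ctrl, 1 to 2 (1) for neonatal mTEClo AireEEDdKO against EEDcKO, 1 to 2 (2) for neonatal Ctrl mTEChi against mTEClo, 3 to 6 (6) for neonatal EEDcKO mTEChi against mTEClo, 1 to 2 (1) for neonatal AireEEDdKO mTEChi against mTEClo and 0 to 1 (1) for the EED effect between fractions. Of the log2 changes of single members, 2380 stayed on their side of the threshold over all alternatives (103 of these, none past it, took the other sign), 168 lost and 78 gained a call. A further 2 that had passed changed sign, both with library kind as a term in adult mTEChi AireKO against WT. They were Aire (0.14, adjusted p = 0.931) and Parp1 (0.0185, adjusted p = 0.976). The term rests on 2 against 2 mTEClo AireKO libraries, which differ in age as well. Scaling by library size alone moved the median of all genes by -0.16 in adult mTEChi AireKO against WT, -0.13 in adult AireKO mTEChi against mTEClo, -0.18 in the adult Aire effect between fractions, -0.21 in neonatal mTEChi AireKO against Ctrl and -0.13 in AireEEDdKO against EEDcKO, and shifts the members with it. It moved 13 of 99 group means of the members by more than their SD. In the comparisons where same-numbered libraries deviated together, the replicate block changed no call of a member. The block was fitted over all groups of a table, so it also joined numbers of groups that did not deviate together. It therefore does not test whether pairing matters. In the other comparisons, a call lost under the block is not read as a weaker effect.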
